A study of Gallus gallus with 16 samples.

Results

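The genes described here are 6 members of the pathway that carries a bacterial signal from a Toll-like receptor to the nucleus, namely IRAK2, NFKBIA, NFKBIZ, MAP2K1, MAPK3 and IL6. They were chosen by name, with earlier results of these data known. All 6 were found among the 6492 transcript rows of the deposited data, of which 1697 carried a gene symbol. The study states that its reads mapped to a larger number of transcripts, so all transcripts here means those among the deposited rows. Each of the 6 genes had 1 row. The cells were HD11, a line of chicken cells described as macrophage-like, and their RNA was sequenced in 4 groups of 4 libraries. The LPS + PB1 group received procyanidin B1 (PB1, a plant polyphenol made of linked flavan-3-ol units) at 100 μg/mL for 12 h and then lipopolysaccharide (LPS, an endotoxin from the surface of Gram-negative bacteria) at 100 ng/mL. The LPS group received the same dose of LPS without PB1, the PB1 group received PB1 without LPS, and the CTR group received neither. The length of LPS exposure is given as 12 h in the methods of the study and as 6 h in the sample labels. The treatment protocol that the labels give for all 16 samples also names another compound, SeMC, at 100 μM. The methods state 3 samples per group and the labels 4, and all 4 were used.

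In vertebrate macrophages, LPS is sensed by a Toll-like receptor whose adaptor recruits kinases of the IRAK family. The signal then divides. Along one branch the inhibitor IκBα is destroyed and NF-κB enters the nucleus, and along the other a chain of kinases ends in the mitogen-activated protein kinases (MAPK). The cytokine IL6 is among the best known products of both branches. Much of the pathway is switched at the level of protein modification, which RNA-seq does not measure, whereas several of its inhibitors and amplifiers are themselves induced as transcripts.

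The deposited values were scaled to 1e+06 per library after TMM normalization, and are called the normalized signal. Tests between groups used limma, and p-values were adjusted by the Benjamini-Hochberg method over all transcripts tested. A call required both an adjusted p of 0.05 or less and a fold change of 1.5 or more. Between 4173989 and 4414942 reads were recovered per library. The 4 libraries of a group were not evenly alike. Replicates 1 and 2, and likewise replicates 3 and 4, differed less from each other than from the other pair in LPS + PB1, LPS and CTR, with a chi-square per degree of freedom of at most 6.82 within these pairs and at least 20 between them. In PB1 the ranges overlapped, at 1.49 to 5.32 within pairs and 4.62 to 12.4 between pairs. No labels say whether the libraries came from separate cultures, so the p-values measure only the spread between these samples. Fold changes are therefore also given within each pair of replicates.

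The labelled cell type was checked against marker transcripts. Only rows with a gene symbol could be matched to markers of any cell type, so markers not matched may still be among the unnamed rows. Of 25 macrophage markers, 3 were among the transcripts analysed. CYBB, the catalytic subunit of the phagocyte oxidase, had no read in any library, FCER1G had at most 4 reads and MRC1 at most 3. Summed over these 3 markers, the normalized signal was 0.978 to 1.79 in LPS + PB1, 0.658 to 1.24 in LPS, 0.587 to 1 in PB1 and 0.503 to 1.52 in CTR. Fibroblast markers, of which 8 of 22 were present, were abundant in all 16 libraries, with a summed signal of 52957 to 80501 in LPS + PB1, 74856 to 105468 in LPS, 51228 to 53990 in PB1 and 78627 to 97846 in CTR. The markers did not move together. The collagen chain COL1A2 averaged 33751 in LPS + PB1, 38061 in LPS, 16465 in PB1 and 43552 in CTR, whereas LOX, an enzyme that cross-links collagen, averaged 4832, 5375, 8195 and 5065 in the same order. The epithelial, endothelial and lymphocyte markers present (2 of 7, 1 of 6 and 1 of 8) summed to at most 16. These 3 macrophage markers thus did not bear out the macrophage-like label, and the cells are called HD11 here as the labels have it.

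Of the 6 genes, NFKBIZ and IRAK2 differed strongly between groups, and in each of them it was the PB1 group that stood apart. NFKBIZ was 8.12-fold lower in PB1 than in CTR, and IRAK2 was 2.64-fold higher. The LPS + PB1 libraries, which had received PB1 as well, were not called against CTR for either gene. None of the 6 genes was called between LPS and CTR, where 16.8% of all transcripts tested were called. MAPK3 and IL6 differed by less than the fold-change limit, and NFKBIA and MAP2K1 were not called in any comparison.

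**Figure D1:**
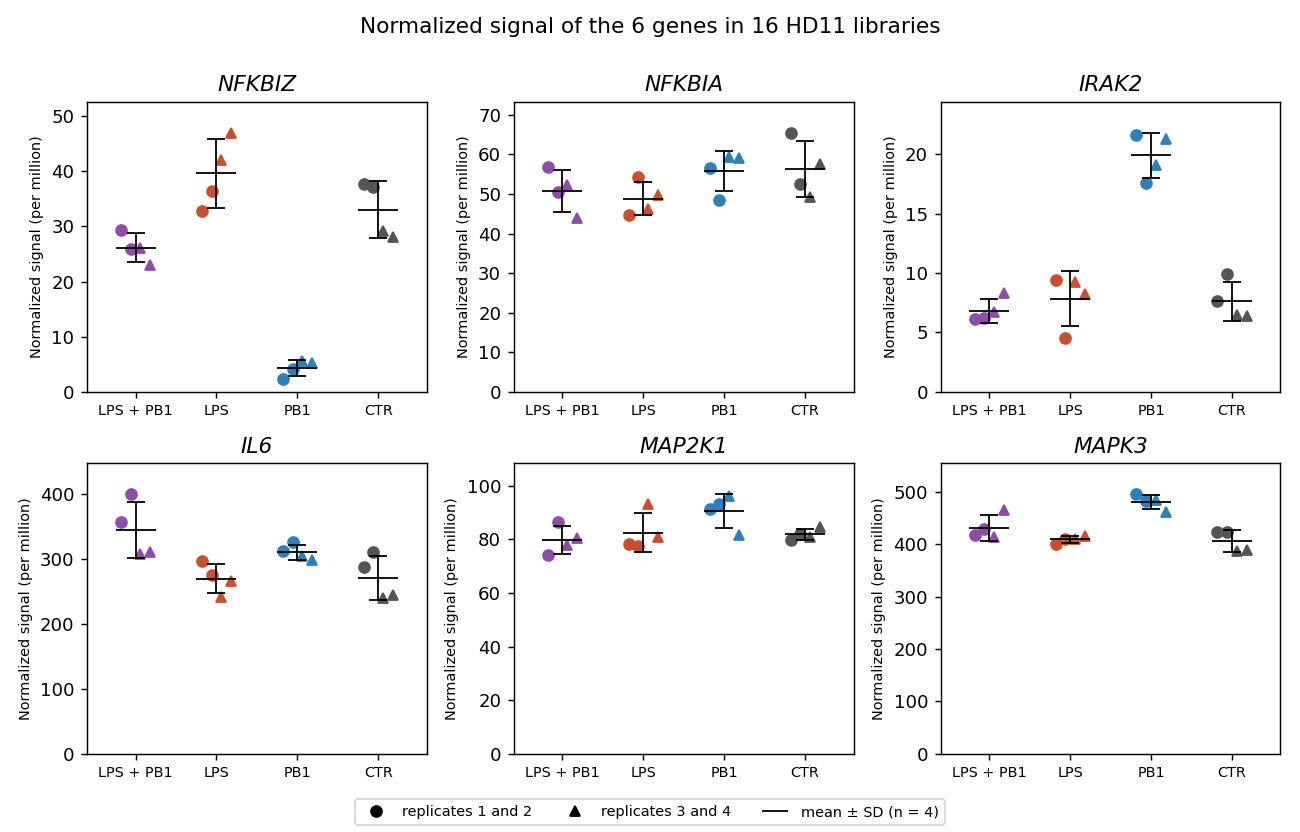
Normalized signal, scaled to 1e+06 per library (vertical axes, linear and starting at 0) of the 6 genes in the LPS + PB1, LPS, PB1 and CTR groups. Each point is 1 library, circles are replicates 1 and 2, triangles are replicates 3 and 4, and the bars give mean ± SD over 4 libraries; the PB1 libraries of NFKBIZ (2.25 to 5.57) and IRAK2 (17.6 to 21.6) lie apart from the 12 others.

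IRAK2 (NM_001396628.1, chromosome 12, 19614482 to 19628050 in GRCg7b) encodes a receptor-proximal member of the IRAK family, which in mammals joins the complex of the adaptor MyD88 and passes the signal to the ubiquitin ligase TRAF6. The annotation lists 2 transcripts of the gene, of which 1 had a row. The normalized signal of replicates 1 to 4 was 6.11, 6.18, 6.73 and 8.31 in LPS + PB1, and 9.41, 4.52, 9.27 and 8.21 in LPS. It was 21.6, 17.6, 19.1 and 21.3 in PB1, against 7.63, 9.96, 6.46 and 6.4 in CTR. All 4 PB1 libraries were above every other library, and the remaining 12 were intermixed. These levels rest on few reads, 76 to 95 per library in PB1 and 17 to 41 in the others.

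PB1 exceeded CTR for IRAK2 by 1.40 on the log2 scale (standard error 0.17, 95% interval 1.04 to 1.76, limma adjusted p = 2.31e-05). Within replicates 1 and 2 the log2 fold change was 1.14, and within replicates 3 and 4 it was 1.65. LPS + PB1 was 2.89-fold lower than PB1, or -1.53 on the log2 scale (standard error 0.15, limma adjusted p = 2.04e-05). LPS was likewise lower than PB1, at -1.39 (limma adjusted p = 0.0005). These 3 comparisons share the PB1 libraries and are not independent of one another. The remaining comparisons of IRAK2 gave no call, but their intervals were wide. Between LPS and CTR the log2 fold change was 0.03 (95% interval -0.56 to 0.61, limma adjusted p = 0.95), between LPS + PB1 and LPS it was -0.15 (-0.74 to 0.43, adjusted p = 0.68), and between LPS + PB1 and CTR it was -0.12 (-0.57 to 0.33, adjusted p = 0.685). A 1.5-fold rise in LPS against CTR and a 1.5-fold fall in LPS + PB1 against LPS were thus not excluded. The interval of LPS + PB1 against CTR stayed within 1.5-fold, narrowly so at its lower end. Without replicate 2 of LPS, the lowest library at 4.52, the log2 fold change of LPS against CTR was 0.27 (limma adjusted p = 0.326).

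NFKBIA (NM_001001472.3, chromosome 5, 35701640 to 35705164) encodes IκBα, which holds NF-κB in the cytoplasm and whose gene is in turn a classical NF-κB target. The normalized signal of replicates 1 to 4 was 56.7, 50.4, 52.2 and 43.9 in LPS + PB1, and 44.7, 54.2, 46.3 and 49.8 in LPS. It was 56.6, 48.5, 59.4 and 59 in PB1, against 65.5, 52.6, 49.3 and 57.6 in CTR. All 4 groups overlapped. The largest log2 difference from CTR was -0.19 in LPS (standard error 0.11, 95% interval -0.43 to 0.05, limma adjusted p = 0.215). In PB1 it was -0.01 (-0.25 to 0.22, adjusted p = 0.936), and in LPS + PB1 it was -0.12 (-0.39 to 0.14, adjusted p = 0.458). LPS + PB1 and LPS differed by 0.06 (-0.17 to 0.29, adjusted p = 0.693). None of these intervals, which count the 4 libraries of a group as separate samples, reached a 1.5-fold change in either direction.

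NFKBIZ (NM_001006254.2, chromosome 1, 85658140 to 85674660) encodes IκBζ, an unusual nuclear member of the same inhibitor family. In mice it is induced through Toll-like and IL-1 receptors and is needed by macrophages for the induction of a subset of NF-κB targets, Il6 among them. The annotation lists 4 transcripts of the chicken gene, of which 1 had a row. The normalized signal of replicates 1 to 4 was 29.4, 25.9, 26 and 23 in LPS + PB1, and 32.8, 36.4, 42.1 and 47 in LPS. It was 2.25, 4.09, 5.57 and 5.24 in PB1, against 37.7, 37.2, 29.1 and 28 in CTR. The 4 PB1 libraries were below all others, and the 4 LPS + PB1 libraries were below the 4 LPS libraries without overlap. LPS and LPS + PB1 each overlapped CTR. In PB1 the gene had only 9 to 23 reads per library, compared with 107 to 216 in the other groups, and its coefficient of variation was 35% there and at most 15.8% elsewhere.

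In PB1, NFKBIZ fell by 3.02 on the log2 scale relative to CTR (standard error 0.26, 95% interval -3.59 to -2.46, limma adjusted p = 1.36e-06). The difference had the same sign in both pairs of replicates, at -3.64 in replicates 1 and 2 and at -2.40 in replicates 3 and 4. LPS + PB1 was 6.5-fold higher than PB1 (log2 fold change 2.70, standard error 0.27, limma adjusted p = 1.77e-05), again in both pairs, at 3.20 and 2.19. LPS was 9.73-fold higher than PB1 (limma adjusted p = 2.61e-06). As for IRAK2, these comparisons share the PB1 libraries.

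With PB1 given before LPS, NFKBIZ averaged 26.1 ± 2.62 in LPS + PB1 and 39.6 ± 6.25 in LPS (SD, n = 4 each). The difference of -0.59 in log2 (standard error 0.13, 95% interval -0.90 to -0.29, limma adjusted p = 0.00899) lay at the limit of 1.5-fold. Within replicates 1 and 2 it was -0.32 (limma adjusted p = 0.0782), and within replicates 3 and 4 it was -0.86 (adjusted p = 0.000464). With the mean of each pair taken as 1 sample the adjusted p was 0.166. With a term for the replicate number in the limma fit (the replicate block) it was 0.0105. The call was lost without replicate 3 of LPS (-0.56), replicate 4 of LPS (-0.51) or replicate 4 of LPS + PB1 (-0.54), all 3 of them with an adjusted p of at most 0.028 but a fold change under 1.5.

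LPS and CTR did not differ in NFKBIZ by a called amount, with a log2 fold change of 0.28 (95% interval -0.06 to 0.61, limma adjusted p = 0.186). The pairs of replicates disagreed. Replicates 1 and 2 averaged 34.6 in LPS and 37.5 in CTR, whereas replicates 3 and 4 averaged 44.6 in LPS and 28.5 in CTR. The log2 fold change was accordingly -0.12 within the first pair (limma adjusted p = 0.483) and 0.66 within the second (adjusted p = 0.000739), where the gene was called. A p-value within 1 pair measures only the spread between its alike libraries. The limma adjusted p was 0.49 with the mean of each pair as 1 sample. LPS + PB1 and CTR differed by -0.31 (limma adjusted p = 0.116).

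MAP2K1 (NM_001005830.2, chromosome 10, 18496305 to 18527713) encodes MEK1, the kinase that phosphorylates the ERK MAPKs. The annotation lists 2 transcripts, of which 1 had a row. Its normalized signal in replicates 1 to 4 was 74.2, 86.4, 77.9 and 80.6 in LPS + PB1, and 78.3, 77.5, 93.1 and 81 in LPS. It was 91.3, 93.1, 96.3 and 81.8 in PB1, against 79.9, 82, 81 and 84.6 in CTR. All groups overlapped. The log2 fold change of PB1 against CTR was 0.14 (95% interval -0.02 to 0.30, limma adjusted p = 0.145), and the other comparisons ranged from -0.17 to 0.02.

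MAPK3 (NM_204150.2, chromosome 15, 527223 to 557118) encodes an ERK, the type of kinase that MEK1 activates, and is named here as in the annotation. Its normalized signal in replicates 1 to 4 was 417, 429, 413 and 466 in LPS + PB1, and 400, 409, 410 and 416 in LPS. It was 495, 483, 485 and 462 in PB1, against 424, 424, 387 and 389 in CTR. All 4 PB1 libraries were above the LPS and CTR libraries, and 1 LPS + PB1 library exceeded the lowest PB1 library.

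The difference in MAPK3 between PB1 and CTR was small but larger than the spread between replicates, at 0.24 on the log2 scale (standard error 0.06, 95% interval 0.11 to 0.37, limma adjusted p = 0.00718). This corresponds to a fold change of 1.18, under the limit for a call. The first pair of replicates gave 0.19 and the second 0.28. With the mean of each pair as 1 sample the limma adjusted p was 0.158, and with the replicate block it was 0.00285. LPS was lower than PB1 by a similar amount (-0.23, limma adjusted p = 0.0053). Between LPS + PB1 and PB1 the log2 fold change was -0.14 (adjusted p = 0.12), between LPS + PB1 and LPS it was 0.08 (adjusted p = 0.394), and between LPS and CTR it was 0.02 (adjusted p = 0.803).

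IL6 (NM_204628.2, chromosome 2, 30771353 to 30774770) encodes the inflammatory cytokine at the end of the pathway. Its row was well covered, with 946 to 1720 reads per library. The normalized signal of replicates 1 to 4 was 357, 399, 308 and 311 in LPS + PB1, and 296, 275, 241 and 266 in LPS. It was 312, 326, 305 and 298 in PB1, against 288, 310, 240 and 244 in CTR. The 4 LPS + PB1 libraries were above the 4 LPS libraries, LPS and CTR overlapped throughout, and the highest CTR library was above the lowest LPS + PB1 library.

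For IL6 the log2 fold change of LPS + PB1 against LPS was 0.35 (standard error 0.10, 95% interval 0.12 to 0.57, limma adjusted p = 0.0268), or 1.27-fold. The first pair of replicates gave 0.41 and the second 0.30. With the mean of each pair as 1 sample the limma adjusted p was 0.25, and with the replicate block it was 0.00495. Against CTR, LPS + PB1 was higher by 0.37 (95% interval 0.11 to 0.63, limma adjusted p = 0.037). PB1 was higher than CTR by 0.20, with an adjusted p of 0.087, and LPS was lower than PB1 by 0.20 (log2 fold change -0.20, adjusted p = 0.0398). None of these differences reached 1.5-fold. Between LPS and CTR the log2 fold change was 0.01 (95% interval -0.21 to 0.24, limma adjusted p = 0.933). This interval stayed within 1.5-fold in either direction, but it counts the 4 libraries of a group as separate samples. Replicates 1 and 2 averaged 285 in LPS and 299 in CTR, and replicates 3 and 4 averaged 253 in LPS and 242 in CTR.

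**Figure D2:**
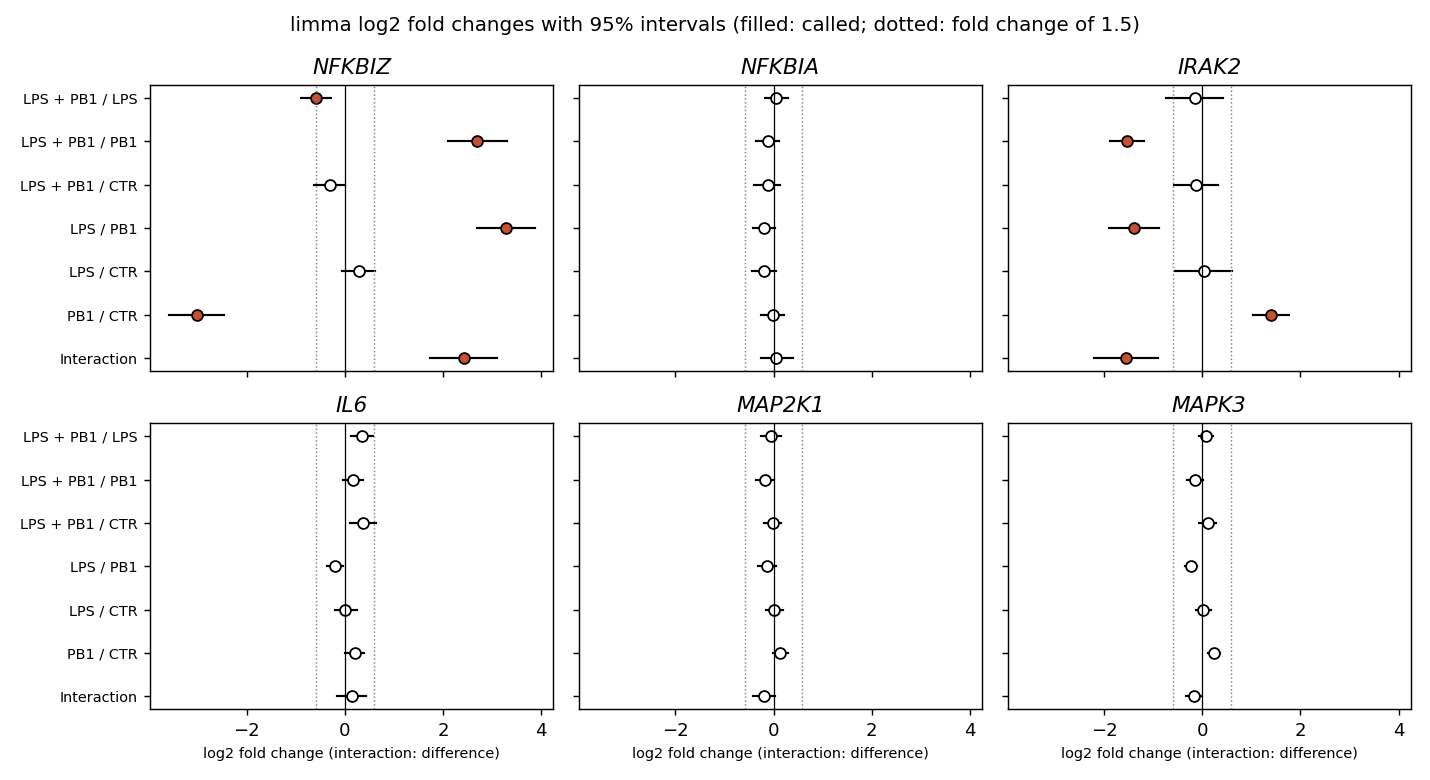
Log2 fold changes from limma with 95% intervals (horizontal axes) for each of the 6 genes in the 6 comparisons between groups and for the interaction of LPS and PB1, with called values filled and dotted lines at a fold change of 1.5. NFKBIZ and IRAK2 have called values in the comparisons with the PB1 group and in the interaction, and only NFKBIZ has one between LPS + PB1 and LPS (-0.59).

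Ordered by mean, the 4 groups ran LPS, CTR, LPS + PB1 and PB1 from high to low for NFKBIZ, and only the last step was called. For IRAK2 the order was PB1, LPS, CTR and LPS + PB1, and only the first step was called. No step between neighbouring groups was called in the other 4 genes. The mean order was PB1, LPS + PB1, LPS and CTR for MAPK3, LPS + PB1, PB1, CTR and LPS for IL6, PB1, LPS, CTR and LPS + PB1 for MAP2K1, and CTR, PB1, LPS + PB1 and LPS for NFKBIA.

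Comparison by comparison, the number of genes called was read against the share called among all transcripts. Between PB1 and CTR, 2 of the 6 genes were called, 1 higher (IRAK2) and 1 lower (NFKBIZ), where 20.9% of all 4485 transcripts tested were called, 10.5% higher and 10.4% lower. The groups did not overlap in 3 of the 6 genes and in 42.2% of all transcripts. Between LPS and CTR none of the 6 was called by limma, edgeR or DESeq2, and none had an unadjusted p under 0.05 or groups without overlap. Among all transcripts of that comparison 16.8% were called, 9.97% higher and 6.82% lower, and 34.1% did not overlap.

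Between LPS + PB1 and CTR none of the 6 genes was called by limma, edgeR or DESeq2, 2 had an unadjusted p under 0.05, and all 6 overlapped. The share called among all transcripts was 17.7%, with 9.17% higher and 8.52% lower, and 33.4% did not overlap. Between LPS + PB1 and LPS, 1 of the 6 was called, NFKBIZ, and 2 did not overlap. There 17.6% of all transcripts were called, 7.37% higher and 10.2% lower, and 34.7% did not overlap.

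Between LPS + PB1 and PB1, 2 of the 6 were called and did not overlap, with NFKBIZ higher and IRAK2 lower. The background was 29.4% of all transcripts called, 14.5% higher and 14.9% lower, and 47.0% without overlap. Between LPS and PB1, 2 of the 6 were called and 4 did not overlap, against 25.1% called and 45.5% without overlap among all transcripts. In all 6 comparisons the count called was within 2 genes of what the share over all transcripts would give for 6 genes, so that the counts do not set the 6 genes apart. The median log2 fold change over all transcripts was between -0.01 and 0.01 in every comparison. TMM normalization of each fit centres it near 0, so it does not measure a shift shared by all transcripts.

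Whether LPS acted differently with and without PB1 was tested by the interaction over all 16 libraries, which sets the LPS + PB1 to PB1 difference against the LPS to CTR difference. For NFKBIZ the interaction was 2.42 on the log2 scale (standard error 0.32, 95% interval 1.74 to 3.10, limma adjusted p = 1.32e-05), since LPS + PB1 exceeded PB1 by 2.70 while LPS exceeded CTR by 0.28. For IRAK2 it was -1.56 (standard error 0.31, 95% interval -2.21 to -0.91, limma adjusted p = 0.000629), from -1.53 with PB1 and 0.03 without. Both kept their sign in each pair of replicates, at 3.32 and 1.54 for NFKBIZ and at -1.23 and -1.87 for IRAK2, and both were called in all 16 fits that left out 1 library. The interaction was called for 2 of the 6 genes and for 45.2% of all transcripts. For MAPK3 it was -0.17 (adjusted p = 0.107), for MAP2K1 -0.19 (adjusted p = 0.169), for IL6 0.14 (adjusted p = 0.435) and for NFKBIA 0.06 (adjusted p = 0.774). The pairs of replicates disagreed for IL6. Its interaction was 0.33 in replicates 1 and 2 alone (limma adjusted p = 0.00844), where it was called. In replicates 3 and 4 alone it was -0.03 (limma adjusted p = 0.878).

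**Figure D3:**
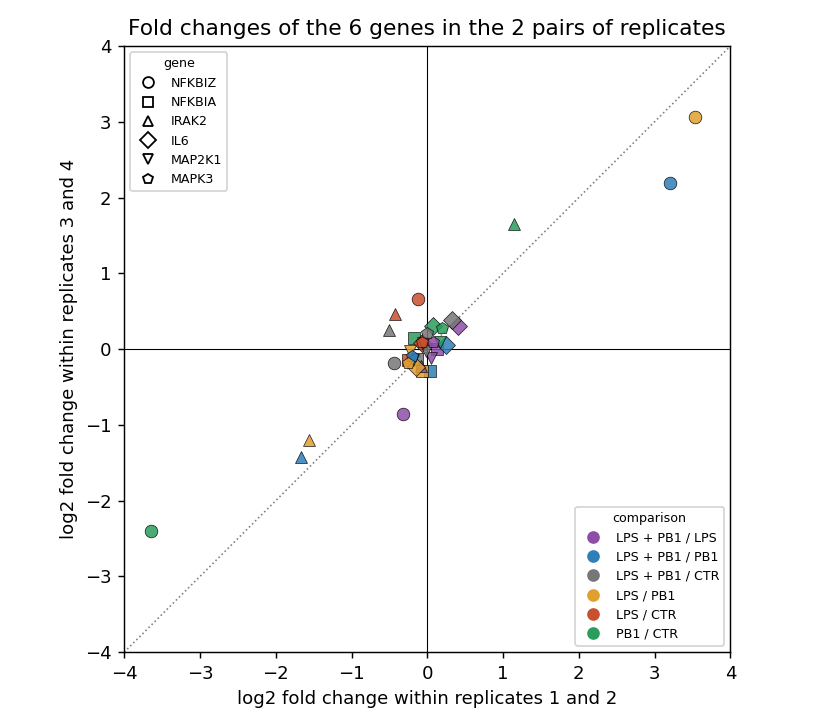
Log2 fold changes of the 6 genes within replicates 1 and 2 (horizontal axis) and within replicates 3 and 4 (vertical axis), 1 point per gene (symbol) and comparison (colour), with the diagonal dotted. The large changes of NFKBIZ and IRAK2 have the same sign in both pairs, whereas NFKBIZ in LPS against CTR lies at -0.12 and 0.66.

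The PB1 libraries also differed in the marker sums given above. Their summed fibroblast markers (51228 to 53990) did not overlap those of CTR or LPS, and overlapped those of LPS + PB1. The lower sum came mainly from COL1A2, COL3A1 (1915 in PB1 against 7087 in CTR) and SPARC (4114 against 11244), while LOX (8195 against 5065) and COL6A2 (15998 against 14292) were not lower in PB1 than in CTR and TWIST1 was level (103 against 102). Their summed macrophage markers (0.587 to 1) overlapped those of all other groups. The part of this difference in the values of NFKBIZ, IRAK2 and MAPK3 was not tested, and in RNA from whole cultures fewer cells of a type cannot be told apart from less RNA per cell.

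The rest of the pathway was thinly covered among the 1697 rows with a gene symbol. The 4790 rows of predicted transcripts carried no symbol and could not be matched to a listed gene. In what follows a row means one with a symbol. A listed gene without one may still be among the unnamed rows, or may be absent from the deposited rows. Of 178 further genes listed for Toll-like and IL-1 receptor signalling, NF-κB, the MAPK cascades, NF-κB-driven effectors and IL6 receptor signalling, 22 had a row and 13 or 14 were tested, depending on the comparison. Of those tested, 3 were called higher and 2 lower in PB1 against CTR (5 of 14, with 20.9% of all transcripts called), and 1 higher and 1 lower in LPS against CTR (2 of 13, with 16.8%). In LPS + PB1, 0 were called higher and 3 lower against CTR (3 of 13, with 17.7%), 3 higher and 2 lower against LPS (5 of 13, with 17.6%), and 2 higher and 4 lower against PB1 (6 of 14, with 29.4%). The counts of 14 include CCL20, 1 of the 3 higher and 1 of the 4 lower, which passed the filter on low reads only through its level in PB1. The median log2 fold change over the genes tested lay between -0.21 and 0.11 in these 5 comparisons. The interaction was called for 9 of 14, with 45.2% of all transcripts called. None of the 18 genes for IL6 receptor signalling was analysed here.

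At the receptor end, 2 of 35 listed genes had a row. TLR3, the receptor for double-stranded RNA, averaged 6.38 ± 0.226 in LPS + PB1, 17.9 ± 2.81 in LPS, 11.9 ± 1.6 in PB1 and 6.95 ± 1.43 in CTR (SD, n = 4 each). It was called higher in LPS against CTR (log2 fold change 1.39, limma adjusted p = 0.000314) and lower in LPS + PB1 against LPS (-1.47, limma adjusted p = 0.000134), in both pairs of replicates. TLR3 was also called higher in PB1 against CTR (0.79, limma adjusted p = 0.00314) and lower in LPS + PB1 against PB1 (-0.88, adjusted p = 0.000782). Its reads were few, at 24 to 92 per library. With the mean of each pair as 1 sample the limma adjusted p of LPS + PB1 against LPS was 0.0512, and with the replicate block it was 0.000209. UBE2N, which builds the ubiquitin chains that TRAF6 uses, was not called between groups. Of the NF-κB list, 2 of 30 genes had a row, namely MAP3K14, the kinase of the non-canonical NF-κB branch, and BIRC2, a ubiquitin ligase at the tumour necrosis factor receptor. Neither was called in any comparison, their interaction included.

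Among 59 MAPK genes other than MAP2K1 and MAPK3, 9 had a row and 8 were tested. Of those called between groups in at least 1 comparison, SPRY2, DUSP1, DUSP4 and DUSP7 encode inhibitors of MAPK signalling, MAP2K5 a kinase and NRAS the GTPase above the ERK cascade. Single comparisons called 16.8% to 29.4% of all transcripts. The share called in at least 1 comparison was not computed, so these calls do not set the MAPK genes apart. SPRY2, an inhibitor of receptor tyrosine kinase signalling to ERK, was highest in PB1, as was IRAK2, with 71.8 ± 6.46 in LPS + PB1, 47.9 ± 10 in LPS, 144 ± 10.4 in PB1 and 57.8 ± 12.1 in CTR (SD, n = 4 each). It rose in PB1 against CTR by 1.34 on the log2 scale (limma adjusted p = 5.52e-06). DUSP4, a nuclear phosphatase of MAPKs, averaged 17.3 in LPS + PB1, 24.5 in LPS, 18.3 in PB1 and 56.5 in CTR. It was lower than in CTR in LPS + PB1 (-1.67, limma adjusted p = 2.73e-05), LPS (-1.19, adjusted p = 0.000647) and PB1 (-1.64, adjusted p = 6.65e-06), 3 comparisons that share the CTR libraries.

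Between LPS + PB1 and LPS, DUSP7, a cytoplasmic phosphatase of ERK, averaged 111 ± 12.8 in LPS + PB1 and 66.4 ± 7.68 in LPS (SD, n = 4 each), with a log2 fold change of 0.75 (limma adjusted p = 0.00145). MAP2K5, the kinase of the separate ERK5 cascade, averaged 38.4 ± 4.54 in LPS + PB1 and 66.5 ± 9.11 in LPS, with a log2 fold change of -0.79 (limma adjusted p = 0.00139). Both differences held in each pair of replicates, at 0.74 and 0.77 for DUSP7 and -0.81 and -0.76 for MAP2K5. With the mean of each pair as 1 sample neither was called, at a limma adjusted p of 0.102 for DUSP7 and 0.108 for MAP2K5. With the replicate block it was 9.42e-05 for DUSP7 and 0.000132 for MAP2K5. DUSP1, a nuclear phosphatase of MAPKs that is among the fastest genes to respond to stress, averaged 369 ± 80.5 in LPS + PB1 and 168 ± 72.4 in LPS. The log2 fold change was 1.22 (limma adjusted p = 0.0157, or 0.206 with the mean of each pair as 1 sample and 0.000164 with the replicate block). Between LPS and CTR the difference in DUSP1 had opposite signs in the pairs of replicates, -1.67 in replicates 1 and 2 and 0.79 in replicates 3 and 4, as had that of NFKBIZ. SPRY2 was called in LPS + PB1 against LPS at 0.60 on the log2 scale. This call was lost with edgeR on the recovered reads (0.58) and in replicates 3 and 4 alone (0.31). It was also lost without replicate 1 (0.50) or 2 (0.53) of LPS or replicate 1 (0.58) or 3 (0.57) of LPS + PB1. With means of the pairs it was not called either (limma adjusted p = 0.192). With the replicate block the limma adjusted p was 0.00662. MAP2K5 was called in LPS + PB1 against CTR at -0.61, and this call was lost without replicate 4 of LPS + PB1 (-0.55) or of CTR (-0.58), in replicates 1 and 2 alone (-0.46) and with means of the pairs (adjusted p = 0.0984).

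Of 36 NF-κB-driven effectors, 9 had a row. CCL4, CCL5, IL10, IL12B, NOS2, MMP9 and BCL2A1 had at most 6 reads in any library and were not tested, so a difference in them was not detectable at this depth. PTX3, a secreted pattern recognition protein, shared with NFKBIZ the low level in PB1, with 2336 ± 797 in LPS + PB1, 2051 ± 87.6 in LPS, 689 ± 14.1 in PB1 and 2664 ± 278 in CTR (SD, n = 4 each). It fell by 1.95 on the log2 scale in PB1 relative to CTR (limma adjusted p = 2.73e-09). The chemokine CCL20 was highest in PB1, with 4 to 10 reads per library in LPS + PB1, 2 to 8 in LPS, 21 to 29 in PB1 and 0 to 10 in CTR. It passed the filter on low reads only in the fits that held PB1, where it is high, so its test is not given.

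The named transcripts whose log2 signal ran most closely with each gene were found by Pearson correlation over the 16 libraries among 1181 candidates, as a description. The points share the libraries and the treatment groups, and the PB1 group stands apart in many transcripts. For NFKBIZ they were HOXB5 (r = 0.95), a homeobox factor, and FSTL1 (r = 0.95), a secreted glycoprotein. HOXB5 had 0 or 1 read per library in PB1 and at least 58 elsewhere, and FSTL1 averaged 10744 in LPS + PB1, 11181 in LPS, 6360 in PB1 and 11047 in CTR. For IRAK2 they were MAGT1 (r = 0.92), a magnesium transporter, and ATP7A (r = 0.91), a copper-transporting ATPase. MAGT1 averaged 189 in LPS + PB1, 191 in LPS, 586 in PB1 and 173 in CTR.

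MAPK3 ran most closely with PTGER2 (r = 0.93), a receptor for prostaglandin E, which averaged 29.5 in LPS + PB1, 17.6 in LPS, 82 in PB1 and 15.3 in CTR, and with PDCD6IP (r = 0.90). IL6 ran with MTPN (r = 0.88) and CDC42 (r = 0.83). The closest matches were weaker for NFKBIA, with PHB2 at 0.77 and CBL at 0.68, and for MAP2K1, with H1F0 at 0.74 and VPS35 at 0.73.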

How the data were processed

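RNA from 16 HD11 libraries was sequenced (Illumina, single reads). Hisat2 (version 2.2) aligned the reads to GRCg7b, Htseq-count counted them and DESeq2 was used for testing, all by the authors. What they deposited is a scaled signal, and its scaling is not given in the sources used here. In every library each value equals the reads plus 1, multiplied by a step of 2.97 to 5.53 and rounded down, so reads were recovered. The step was fitted to the values. The recovered totals exceed the average number of reads per sample that the study states, and this difference was not resolved. Every column matched a sample label. RefSeq accessions were matched to symbols of the GRCg7b annotation. This named 1697 rows and none of the 4790 rows of predicted transcripts. Reads were filtered with filterByExpr (minimum count 10). TMM-normalized signal per 1e+06 was compared on the log2 scale with limma (version 3.58.1, trend), 2 groups per fit and all 16 libraries for the interaction, for which an adjusted p of 0.05 or less was a call. R 4.3.3 and Python 3.11.15 were used, and the scripts were tested on simulated data.

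Alternatives were edgeR (version 4.0.16) and DESeq2 (version 1.42.0) on recovered reads, RLE size factors, no filter, a pseudocount of 1, no fold-change limit, 1 fit of all libraries, a replicate block, leaving out each library, each pair of replicates alone and means of the pairs. Replicate numbers come from the labels. Deviations of same-numbered libraries correlated between LPS + PB1 and LPS (r = 0.55 across transcripts, 0.49 to 0.6 by number), and at -0.13 to 0.19 in other comparisons.

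The 6 genes and the gene lists were chosen with earlier results of these data known. Within each list, genes called in at least 1 comparison were named, at most the 4 with the lowest adjusted p. For each of the 6 genes, the 2 most correlated named transcripts with a mean of at least 10 were named. Other genes were named after their values were seen. A gene of the macrophage list is not reported here.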

Additional observations from a re-analysis of the deposited data

Results flagged for a closer look

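A difference between the LPS effect with PB1 and without it, tested as the limma interaction over all 16 libraries, drew attention to 2 of the 6 genes. It was 2.42 on the log2 scale for NFKBIZ (adjusted p = 1.32e-05) and -1.56 for IRAK2 (adjusted p = 0.000629). Of the 14 pathway genes tested, 9 passed the same test, with 45.2% of all transcripts called. Among those called that the naming rule took, the differences were -2.27 for TLR3, 0.38 for UBE2N, -0.74 for SPRY2, 1.14 for DUSP4, 0.76 for DUSP7, -0.83 for MAP2K5 and 2.07 for PTX3. For UBE2N the first pair of replicates gave 0.70 and the second 0.09, and the call was lost without replicate 1 of LPS + PB1 (0.35), replicate 1 of PB1 (0.36) or replicate 2 of CTR (0.34). With the mean of each pair as 1 sample the limma adjusted p was 0.22 for UBE2N, 0.127 for SPRY2 and 0.0685 for DUSP4. With the replicate block it was 0.0237 for UBE2N, 0.018 for SPRY2 and 0.00309 for DUSP4. SPRY2 was also not called in replicates 1 and 2 alone (-0.27, limma adjusted p = 0.0993). Outside that rule, DUSP1 (1.27, limma adjusted p = 0.0349, or 0.232 with means of the pairs) and LAMTOR3 also passed. DUSP1 gave 2.16 in replicates 1 and 2 and 0.41 in replicates 3 and 4. Its call held in 7 of the 16 fits that left out 1 library, and its limma adjusted p was 0.0555 with the replicate block. NRAS, MAP3K14, BIRC2 and MAPKAPK5 did not pass. The 14 also include CCL20, which passed the filter on low reads only through its level in PB1, so its test is not given.

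A single library stood apart from its group in 1 of 56 groups checked. Chance alone flags 1 in 20 where the libraries of a group are independent. As replicates were alike in pairs, that rate may not apply here. In LPS replicate 1, CCL20 had a normalized signal of 2.14, with a gap to the nearest library of 0.881 of the range in the group. CCL20 had 2 to 8 reads in the LPS libraries.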

How the results depend on the processing

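Of 834 values of the 6 genes under the alternatives, 820 stayed on the same side of the threshold, 7 passed it anew and 7 lost it, and no called value changed direction. Among the 6 genes, the count called between LPS + PB1 and LPS, 1 in the report, was 0 without the filter on low values, with a pseudocount of 1, in replicates 1 and 2 alone and with means of the pairs, and 0 to 1 when each library was left out. Without the fold-change limit it was 2, and the count was 1 instead of 0 between LPS + PB1 and CTR, 3 instead of 2 between PB1 and CTR, and 4 instead of 2 between LPS and PB1. Between LPS and CTR it was 1 instead of 0 in replicates 3 and 4 alone. In replicates 1 and 2 alone the interaction was also called for IL6. With the replicate block all counts stayed as they were, at 1 between LPS + PB1 and LPS, 2 in the 3 comparisons with the PB1 group and in the interaction, and 0 between LPS or LPS + PB1 and CTR. Over all transcripts, dropping the fold-change limit gave 1455 calls instead of 800 between LPS + PB1 and LPS, 2235 instead of 1327 between LPS + PB1 and PB1, 1379 instead of 795 between LPS + PB1 and CTR, 2147 instead of 1138 between LPS and PB1, 1433 instead of 758 between LPS and CTR, and 1960 instead of 937 between PB1 and CTR. Means of the pairs gave 129 between LPS + PB1 and LPS, 293 between LPS + PB1 and CTR, 391 between LPS and CTR, and 949 instead of 2100 for the interaction, and replicates 3 and 4 alone gave 1253 between LPS + PB1 and CTR. Means of the pairs gave 881 instead of 937 between PB1 and CTR, 957 instead of 1138 between LPS and PB1, and 1019 instead of 1327 between LPS + PB1 and PB1. They leave 2 samples per group in every comparison. Why the loss of calls differed between comparisons was not tested. Read counts were lowest for IRAK2 and, in PB1, for NFKBIZ.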
